A study of Mus musculus with 13 samples.

Results

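The transcription factors Tcf21, Tbx2, Tbx3, Tbx4, Tbx5, Foxf1, Foxf2, Meox2 and Hoxa5, all known from the mesenchyme of the developing lung, were followed by RNA-seq in mouse lung fibroblasts. They were chosen by gene name, with earlier results of these data known. All 9 were found among the 43346 entries of the table, of which 22032 are annotated as protein-coding. The 13 libraries form 4 groups of lung fibroblasts from Col1a1-GFP mice, a reporter line in which the promoter of the collagen gene Col1a1 drives green fluorescent protein. They comprised 3 libraries taken 14 days after bleomycin (a chemotherapy agent used in mice to scar the lung), 5 libraries taken 30 days after bleomycin, 3 libraries taken 14 days after pneumonectomy (surgical removal of lung tissue, after which the remaining lung grows), and 2 libraries of sham mice. The sham and bleomycin mice were 8 weeks old and carried the reporter, per their labels. The pneumonectomy labels give primary sorted fibroblasts without an age in weeks or a strain. The deposited table's header row calls that group young, as it does the others, and the series' own design text places it among the reporter mice. No time is given for the sham group, and nothing states that libraries of a group came from separate mice, so p-values measure the spread between these libraries only. The reporter marks any cell that makes this collagen, and no source used here says how the sorting gate was set.

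Tcf21 is a basic helix-loop-helix (bHLH) factor that binds E-box DNA as a dimer with E-proteins, and in the adult mouse lung it marks the lipid-storing fibroblasts of the alveolar wall. The T-box factors Tbx2 to Tbx5 pattern the lung bud mesenchyme, where Tbx4 and Tbx5 act on Fgf10 and on branching, and Tbx2 and Tbx3 are mostly repressors that keep the mesenchyme proliferating. Foxf1 and Foxf2 are forkhead factors that lie downstream of Hedgehog signals from the epithelium, Meox2 is a homeobox factor of mesoderm, and Hoxa5 is the Hox gene whose loss in mice impairs lung and tracheal development.

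Depth was inferred from low deposited RPKM values (reads divided by transcript length and by library depth) and annotated gene lengths. It came to 79.8 to 99.8 M (mega) reads in the bleomycin day 14 libraries and 132 to 200.1 M at bleomycin day 30. It was 68.9 to 75.4 M after pneumonectomy and 67.5 and 71.9 M in sham. At that depth the members held an estimated 377 to 21678 reads per library. All 14 fibroblast markers were at 1 RPKM or more in every library, and their summed level was 3679 to 4691 RPKM at bleomycin day 14, 4100 to 4638 at day 30, 3411 to 5084 after pneumonectomy and 3642 to 4811 in sham. Single fibroblast markers moved within that sum. At bleomycin day 14, 6 of the 14 were lower than in sham, among them Dcn (-3.81 on the log2 scale), Col14a1 (-3.99), Lum (-2.27) and Pdgfra (-1.08), and 5 were higher, among them Fn1 (1.47) and Col1a1 (1.06). At day 30, 3 were higher and 1 lower than in sham, and after pneumonectomy 4 were higher and 2 lower, with Col13a1 at 2.58 and Dcn at -1.14. Markers of other cell types moved with the groups. The 20 endothelial markers summed to 505.2, 924.3 and 866.7 RPKM at bleomycin day 14, against 48.5 to 55.4 at day 30, 47.7 to 90.6 after pneumonectomy and 56.6 and 60.1 in sham. By gene, 19 of the 20 were called higher than in sham at bleomycin day 14 (median log2 change 4.98), 4 higher and 1 lower at day 30 (median -0.34), and 17 higher and 1 lower after pneumonectomy (median 1.59), where Tek fell by 1.55. The 19 macrophage markers summed to 183.9 to 603.9 RPKM at bleomycin day 14, 266.5 to 835.8 at day 30, 37.0 to 58.4 after pneumonectomy and 37.1 and 48.0 in sham. The 17 epithelial markers stood at 1404 RPKM in bleomycin day 30 replicate 3, against 14.1 to 24.5 in the other day 30 libraries, and at 57.3 to 525.4 RPKM after pneumonectomy, 13.1 to 33.5 at bleomycin day 14 and 17.8 and 23.4 in sham. Leaving out that day 30 library changed no member's call against sham. The smooth muscle and pericyte markers summed to 533.1 to 679.7 RPKM at bleomycin day 14, 521.7 to 744 at day 30, 1218 to 1632 after pneumonectomy and 634.8 and 1265 in sham, and 10 of the 17 were called higher and 1 lower after pneumonectomy than in sham. The proliferation markers summed to 33.1 to 41.6 RPKM at bleomycin day 14, 2.49 to 4.66 at day 30, 1.89 to 2.07 after pneumonectomy and 1.06 and 1.56 in sham. The mesothelial markers summed to 3.74 to 6.34, 7.92 to 28.1 and 16.4 to 53.8 RPKM in those 3 treated groups and to 6.20 and 7.08 in sham, and after pneumonectomy 6 of the 8 tested were called higher than in sham. The part of any of these in the members' changes was not tested. The day 30 libraries carried the female-expressed Xist at 19.9 to 29.2 RPKM with the Y-linked Ddx3y listed at 0. The bleomycin day 14 and pneumonectomy libraries had Ddx3y at 9.91 to 23.8 RPKM and Xist at 0.0222 RPKM or less. Sham replicate 1 held both, Xist at 15.9 and Ddx3y at 2.14 RPKM, and sham replicate 2 held Ddx3y at 11.4 RPKM. Sex and day 30 therefore cannot be told apart in the comparison with day 14. The sham group matched no treated group in these genes, and the part of sex in the comparisons with sham was not tested. The pneumonectomy libraries were labelled with an RNA micro kit that the other labels do not name, and this difference cannot be told apart from the surgery.

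RefSeq promoter sequence (GRCm38.p6, 250 bases before to 50 bases after the transcript start) was matched for 5 of the 9 members. The promoters of Tcf21, Tbx4 and Foxf2 are shown because these genes carry the clearest changes below and because Tcf21 belongs to the E-box binding class. Capitals mark each match to the E-box CANNTG, read 5′ to 3′ on the strand of the gene.
Tcf21, chr10:22820094-22820393, minus strand: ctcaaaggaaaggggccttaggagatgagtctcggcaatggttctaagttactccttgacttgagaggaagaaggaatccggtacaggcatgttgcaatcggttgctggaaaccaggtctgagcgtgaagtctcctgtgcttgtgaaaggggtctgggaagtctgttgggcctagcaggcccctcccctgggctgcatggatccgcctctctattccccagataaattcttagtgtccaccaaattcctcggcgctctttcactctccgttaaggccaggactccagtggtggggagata
Tbx4, chr11:85896515-85896814, plus strand: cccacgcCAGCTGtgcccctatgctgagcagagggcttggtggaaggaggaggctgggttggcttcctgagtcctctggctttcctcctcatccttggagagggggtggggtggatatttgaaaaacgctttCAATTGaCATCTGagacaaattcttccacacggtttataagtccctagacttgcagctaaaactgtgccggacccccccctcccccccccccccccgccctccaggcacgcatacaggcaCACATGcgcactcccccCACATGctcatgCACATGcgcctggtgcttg
Foxf2, chr13:31625566-31625865, plus strand: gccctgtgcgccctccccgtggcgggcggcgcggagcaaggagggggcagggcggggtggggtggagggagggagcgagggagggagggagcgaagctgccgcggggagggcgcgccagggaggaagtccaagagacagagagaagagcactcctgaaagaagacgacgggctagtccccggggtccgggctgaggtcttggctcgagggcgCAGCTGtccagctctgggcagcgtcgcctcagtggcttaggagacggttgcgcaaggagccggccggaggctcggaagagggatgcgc
The Tcf21 window held 0 matches to CANNTG, the Tbx4 window 6 and the Foxf2 window 1, where 72.3% of 32851 promoters of the same length hold at least 1 and the mean is 1.39. The Foxf2 window was 71.3% G and C with 27 CG pairs, against 53.3% with 8 for Tcf21, 59% with 8 for Tbx4 and a median of 52.7% with 7 over all promoters. TATAAA, read on both strands, matched once in the Tbx4 window and is found in 13.6% of promoters. Searches on both strands for GGAATG (in 14.7% of promoters), the forkhead-type TGTTTA (13.4%) and the T-box-type GGTGTG (19%) gave 0 matches in each of the 3 windows. The Tbx4 window belongs to a start that lies inside the gene as GENCODE annotates it. Matches are descriptions of these letters only.

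All 9 members reached 1 RPKM in every library, so each passed the filter on low values and was tested in each of the 5 comparisons. The comparisons ask how the fibroblasts of an injured, fibrotic lung, of the same injury at a later time and of a regrowing lung differ from sham and from each other. The test was limma, a linear model across genes, on log2(scaled RPKM + 0.1) over 12938 genes, with Benjamini-Hochberg adjusted p under 0.05 called. Fold changes below are on that scale. At bleomycin day 14, 7 of 9 members were higher than in sham and 2, Tcf21 and Meox2, were lower, where 63.1% of all genes were called, 31.6% as higher and 31.5% as lower. At bleomycin day 30, 4 members were higher than in sham, 1 was lower and 4 were not called, beside 28.8% of all genes called (14.9% higher, 13.9% lower). After pneumonectomy, 6 members were higher than in sham, 0 lower and 3 not called, beside 42.3% of all genes (21.5% higher, 20.8% lower). In the direct comparison of bleomycin day 14 with pneumonectomy day 14, 4 members were higher, 3 lower and 2 not called, beside 70.8% of all genes (35.7% higher, 35.1% lower). From bleomycin day 14 to day 30, 2 members were higher at day 30, 4 lower and 3 not called, beside 59.4% of all genes (31.2% higher, 28.3% lower). The members' median log2 change was 1.43 at bleomycin day 14 against sham, 0.37 at day 30 against sham, 1.01 after pneumonectomy against sham, 0.27 for bleomycin day 14 against pneumonectomy, and -0.27 for day 30 against day 14. The median over all genes lay between -0.01 and 0.02 in each. Without scaling it lay at 0.26 for bleomycin day 14 against sham, 0.11 for day 30 against sham, -0.21 for pneumonectomy against sham, 0.47 for bleomycin day 14 against pneumonectomy and -0.13 for day 30 against day 14, so the changes below are relative to these shifts. Without scaling, the share of all genes called higher and lower moved to 47.9% and 18.9% at bleomycin day 14 against sham, 24% and 7.4% at day 30 against sham, 13.6% and 40.1% after pneumonectomy, 61.2% and 17.8% for bleomycin day 14 against pneumonectomy, and 21.5% and 40.3% for day 30 against day 14. Upper-quartile scaling gave 16.8% and 30.9% after pneumonectomy and 42.3% and 29.3% for bleomycin day 14 against pneumonectomy. Without scaling, 5 members were higher and 1 lower after pneumonectomy, and 5 were higher and 1 lower for bleomycin day 14 against pneumonectomy. The 3 comparisons against sham share the same 2 sham libraries, so their values are not independent. Since the members were chosen with earlier results of these data known, their counts and medians beside all genes are descriptions only. Without sham replicate 1, which leaves 1 sham library, fewer members and a smaller share of all genes were called at bleomycin day 30.

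**Figure D1:**
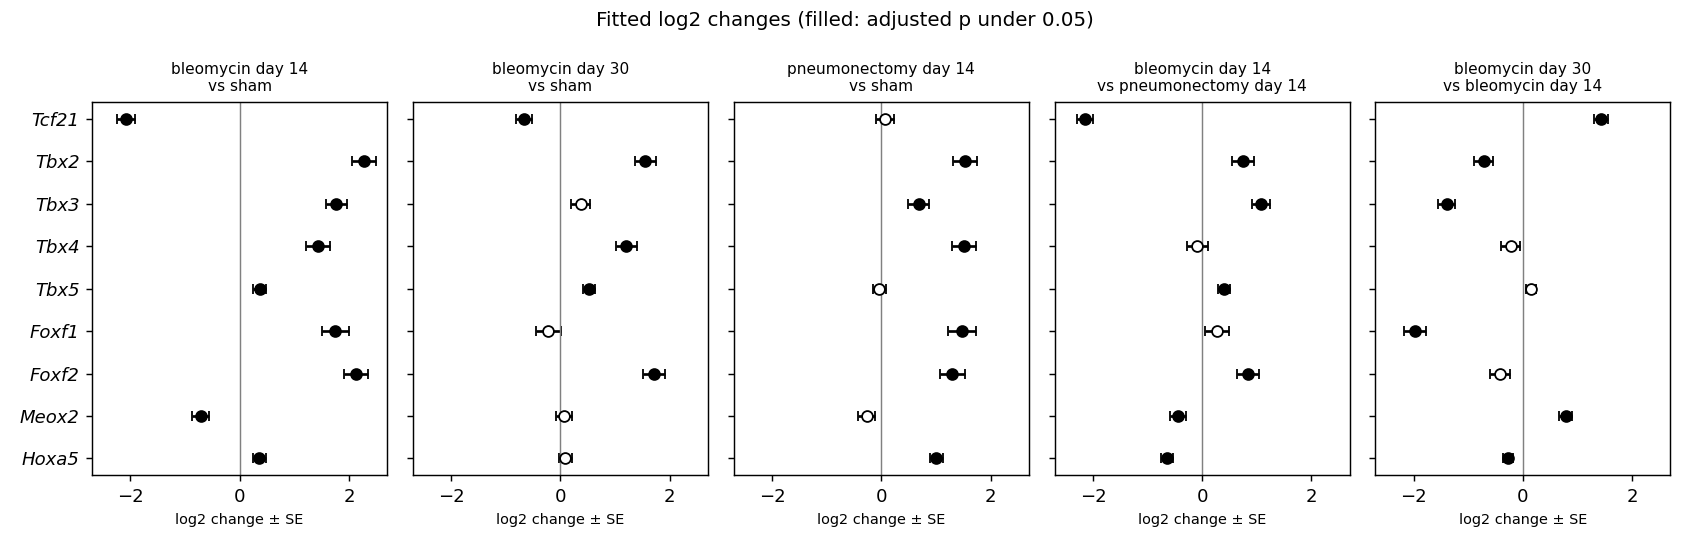
Log2 change of each member (x axis, log2 scale, with standard errors as bars) in the comparisons fitted, filled where adjusted p was under 0.05. Tcf21 lies far to the low side in bleomycin day 14 against sham and against pneumonectomy, while Tbx2, Tbx4 and Foxf2 lie on the high side in all comparisons with sham.

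Tcf21 (chromosome 10, 22817281 to 22820174, minus strand, mm10) was the member that fell furthest. Its deposited level was 8.14, 12.9 and 10.4 RPKM in the 3 bleomycin day 14 libraries and 30.04, 20.8, 26.5, 24.0 and 24.4 RPKM in the 5 day 30 libraries. It was 32.5, 33.2 and 33.7 RPKM after pneumonectomy and 37.2 and 35.8 RPKM in sham. The day 14 bleomycin libraries lay below all others, and the day 30 libraries lay between them and sham. The pneumonectomy libraries lay just below sham as deposited and just above it after scaling. The log2 change was -2.08 ± 0.16 (SE, adjusted p = 8.27e-07) at bleomycin day 14 against sham, which is 0.236 of the sham level, and -0.66 ± 0.15 (adjusted p = 0.00776) at day 30 against sham. Leaving out sham replicate 1 moved the adjusted p of the day 30 value to 0.0545, with a log2 change of -0.63. In bulk samples, fewer cells of a type and less RNA per cell cannot be told apart, and this holds for every level given here. After pneumonectomy the change was 0.06 ± 0.16 (adjusted p = 0.773), and its sign depended on the scaling, since it was -0.14 without scaling and -0.05 with upper-quartile scaling. Tcf21 was lower at bleomycin day 14 than after pneumonectomy (-2.15 ± 0.15, adjusted p = 2.52e-07), and higher at day 30 than at day 14 (1.42 ± 0.13, adjusted p = 2.85e-06).

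**Figure D2:**
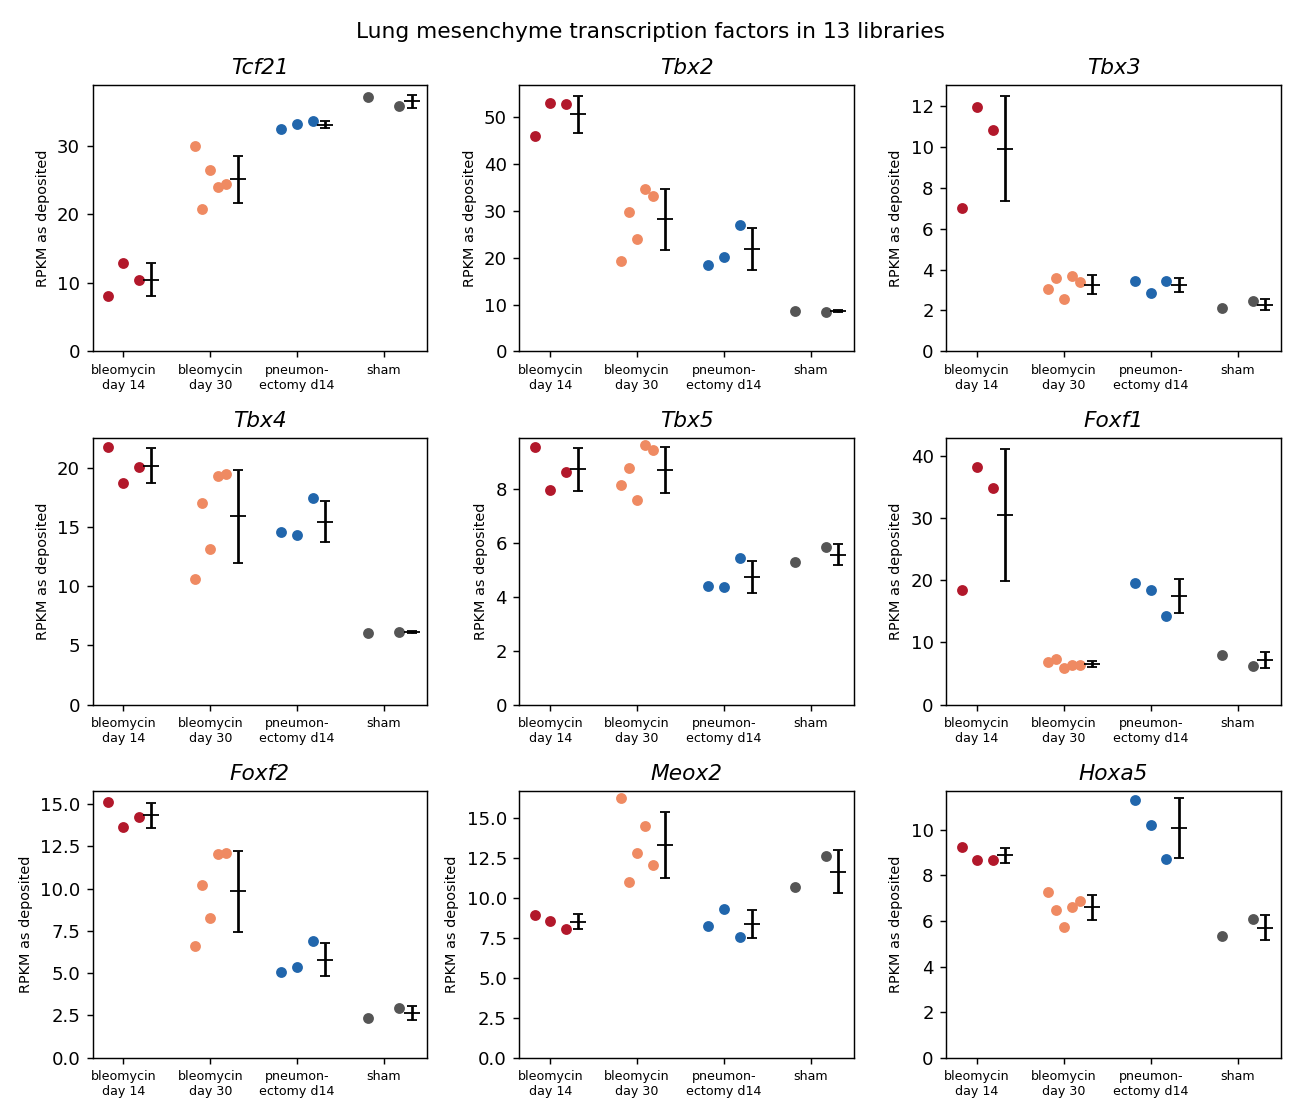
Deposited level of each member in every library (y axis, RPKM), with points for single libraries and a bar with whiskers for each group's mean and SD. The Tcf21 panel shows the day 14 bleomycin points alone at the bottom, and the Tbx2, Tbx4 and Foxf2 panels show the sham points alone at the bottom.

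Tbx2, a T-box repressor, and Tbx4, a lung mesenchyme activator, lie close together on chromosome 11 (plus strand, mm10). They span 85832551 to 85841948 and 85886422 to 85916097, with 44.5 kb between them, in which Gm11444 is annotated. Tbx2 stood at 46.1, 53.0 and 52.9 RPKM at bleomycin day 14 and 19.2, 29.9, 23.9, 34.8 and 33.3 RPKM at day 30. It stood at 18.4, 20.2 and 27.0 RPKM after pneumonectomy and at 8.74 and 8.44 RPKM in sham. Sham was below every other library, and day 14 bleomycin above every other. The log2 change against sham was 2.27 ± 0.22 (adjusted p = 4.12e-06) at bleomycin day 14, 1.56 ± 0.20 (adjusted p = 0.000409) at day 30 and 1.52 ± 0.22 (adjusted p = 0.000288) after pneumonectomy. Tbx2 was also higher at bleomycin day 14 than after pneumonectomy (0.75 ± 0.20, adjusted p = 0.0048) and lower at day 30 than at day 14 (-0.72 ± 0.18, adjusted p = 0.00417).

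Tbx4 stood at 21.7, 18.7 and 20.1 RPKM at bleomycin day 14, 10.6, 17.1, 13.1, 19.3 and 19.4 RPKM at day 30, 14.5, 14.3 and 17.5 RPKM after pneumonectomy and 6.08 and 6.17 RPKM in sham. The treated groups overlapped in part and sham was below all of them. Its log2 change against sham was 1.43 ± 0.22 (adjusted p = 0.000144) at bleomycin day 14, 1.21 ± 0.20 (adjusted p = 0.00162) at day 30 and 1.52 ± 0.22 (adjusted p = 0.000288) after pneumonectomy. Bleomycin day 14 against pneumonectomy gave -0.09 ± 0.19 (adjusted p = 0.700), with a sign that turned to 0.39 without scaling and 0.03 with upper-quartile scaling, and day 30 against day 14 gave -0.22 ± 0.17 (adjusted p = 0.292). Within single libraries, the ratio of Tbx2 to Tbx4 RPKM was 2.12 to 2.83 at bleomycin day 14, 1.71 to 1.83 at day 30, 1.27 to 1.55 after pneumonectomy and 1.37 to 1.44 in sham. The ratio shows unequal change of Tbx2 and Tbx4, with day 14 bleomycin libraries highest.

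Tbx3, a close relative of Tbx2, and Tbx5, a close relative of Tbx4, form the other pair on chromosome 5, at 119670669 to 119684724 and 119832668 to 119885219 (plus strand, mm10), 148 kb apart. Tbx3 stood at 6.999, 11.9 and 10.8 RPKM at bleomycin day 14, 3.06, 3.58, 2.57, 3.697 and 3.42 RPKM at day 30, 3.46, 2.87 and 3.44 RPKM after pneumonectomy and 2.11 and 2.47 RPKM in sham. Day 14 bleomycin was above every other library. The log2 change was 1.77 ± 0.19 (adjusted p = 1.08e-05) at bleomycin day 14 against sham, 0.37 ± 0.18 (adjusted p = 0.134) at day 30 against sham and 0.69 ± 0.19 (adjusted p = 0.0141) after pneumonectomy. The pneumonectomy value missed the threshold without scaling (0.49, adjusted p = 0.0665) and without sham replicate 1 (0.58, adjusted p = 0.0928). Tbx3 was higher at bleomycin day 14 than after pneumonectomy (1.08 ± 0.17, adjusted p = 0.000156), and lower at day 30 than at day 14 (-1.39 ± 0.15, adjusted p = 1.36e-05). The antisense Tbx3os1 shares 115 exonic bases with Tbx3, 1.74% of its exonic length, and no strand setting is given, so its reads cannot be told apart there.

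Tbx5 had the smallest spread of the T-box members over the 13 libraries (a root-mean-square deviation of its log2 level from its mean of 0.269, against 0.55 to 0.73 for the others). It stood at 9.56, 7.98 and 8.64 RPKM at bleomycin day 14, 8.16, 8.78, 7.59, 9.61 and 9.44 RPKM at day 30, 4.41, 4.35 and 5.42 RPKM after pneumonectomy and 5.29 and 5.83 RPKM in sham. The bleomycin groups overlapped each other and were above the pneumonectomy and sham libraries. The log2 change against sham was 0.37 ± 0.12 (adjusted p = 0.0171) at bleomycin day 14, 0.52 ± 0.11 (adjusted p = 0.0052) at day 30 and -0.03 ± 0.12 (adjusted p = 0.835) after pneumonectomy. The day 14 value missed the threshold without bleomycin day 14 replicate 1 (0.28, adjusted p = 0.0601) and without sham replicate 1 (0.30, adjusted p = 0.117), and the day 30 value without sham replicate 1 (0.45, adjusted p = 0.0534). Bleomycin day 14 exceeded pneumonectomy by 0.40 ± 0.11 on the log2 scale (adjusted p = 0.00481). Within libraries, the ratio of Tbx3 to Tbx5 was 0.732 to 1.5 at bleomycin day 14, 0.338 to 0.408 at day 30, 0.635 to 0.784 after pneumonectomy and 0.399 to 0.424 in sham.

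Foxf1 (chromosome 8, 121084386 to 121088144, plus strand, mm10) is a Hedgehog target of the lung mesenchyme that endothelial cells of the mouse lung also express. It stood at 18.4, 38.2 and 34.9 RPKM at bleomycin day 14, 6.83, 7.30, 5.92, 6.36 and 6.42 RPKM at day 30, 19.5, 18.4 and 14.3 RPKM after pneumonectomy and 8.06 and 6.21 RPKM in sham. The day 30 and sham libraries overlapped, and all day 14 libraries, of either treatment, were above them. The log2 change against sham was 1.75 ± 0.25 (adjusted p = 8.79e-05) at bleomycin day 14, -0.22 ± 0.23 (adjusted p = 0.490) at day 30 and 1.48 ± 0.25 (adjusted p = 0.000815) after pneumonectomy. Bleomycin day 14 against pneumonectomy gave 0.27 ± 0.22 (adjusted p = 0.290), which was called without bleomycin day 14 replicate 1 (0.58, adjusted p = 0.00747) and without scaling (0.75, adjusted p = 0.0104). Foxf1 was lower at day 30 than at day 14 after bleomycin (-1.98 ± 0.20, adjusted p = 6.82e-06).

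The summed level of the 20 endothelial markers and Foxf1 were both higher at bleomycin day 14 than at day 30. All 20 markers were above 0 in every library. Bleomycin day 14 replicate 1 had the lowest Foxf1 and the lowest sum of that group. Tcf21, Tbx2, Tbx3 and the summed macrophage markers were also lowest in that replicate. Among the day 30 libraries, replicate 3 had the highest endothelial sum (55.4 RPKM) and the lowest Foxf1 (5.92 RPKM). After pneumonectomy the sums were 73.4, 47.7 and 90.6 RPKM in the libraries with Foxf1 at 19.5, 18.4 and 14.3 RPKM. In sham the sum was carried mainly by Tek, Eng and Ramp2, at means of 15.7, 15.6 and 12.6 RPKM. Of the 20 markers, 17 were called higher after pneumonectomy than in sham, with a median log2 change of 1.59 over the 20. Cdh5, an endothelial cadherin, stood at 64.8, 122.6 and 113.6 RPKM at bleomycin day 14, 5.72, 2.10 and 6.62 RPKM after pneumonectomy and 1.39 and 0.607 RPKM in sham. By gene, 19 of the 20 markers were called higher than in sham at bleomycin day 14. After pneumonectomy Tek was called lower (-1.55), Ramp2 and Eng were not called, and the sum of library B lay below both sham libraries. Fendrr, a long noncoding RNA that starts 1275 bases from Foxf1 on the opposite strand, stood at 5.90, 14.1 and 13.01 RPKM at bleomycin day 14, 2.44 to 3.78 RPKM at day 30, 2.54 to 2.83 RPKM after pneumonectomy and 2.42 and 1.96 RPKM in sham. It was higher at bleomycin day 14 than in sham (1.92 ± 0.29, adjusted p = 0.000132), and after pneumonectomy its change was 0.47 ± 0.29 (adjusted p = 0.211). The part of endothelial cells in the changes of Foxf1, Tbx3 or Fendrr, at bleomycin day 14 or after pneumonectomy, was not tested.

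**Figure D3:**
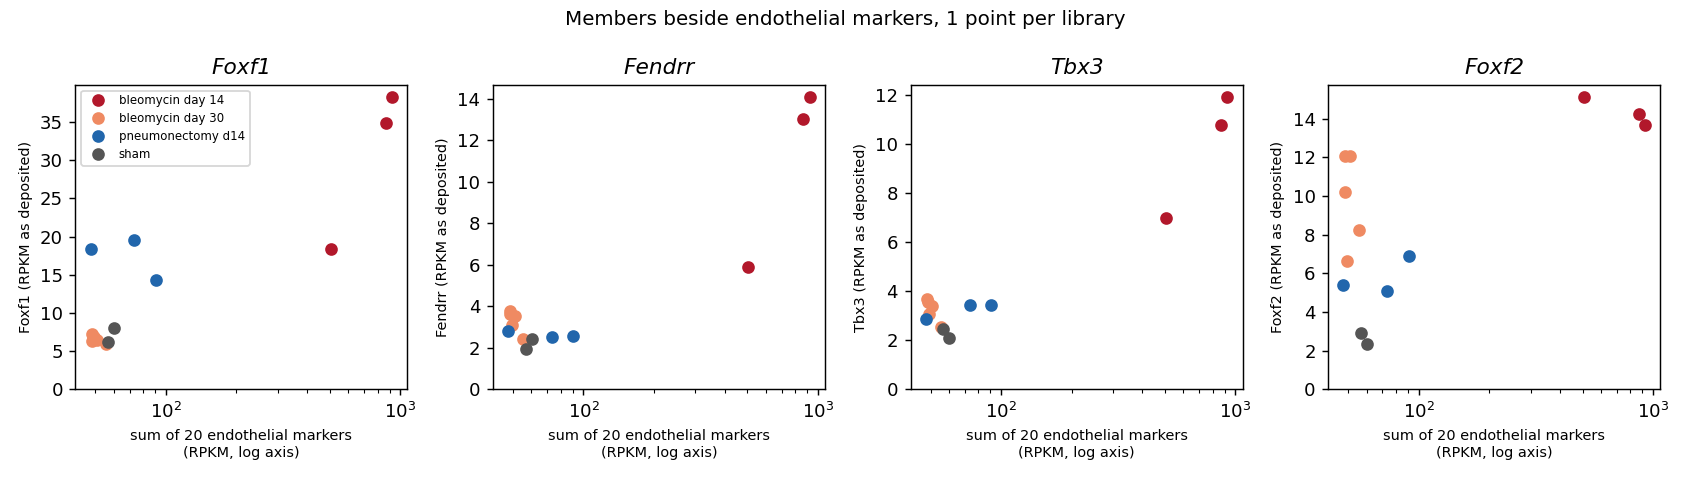
Level of Foxf1, Fendrr, Tbx3 and Foxf2 (y axes, RPKM) against the summed level of 20 endothelial markers (x axis, RPKM, log scale), a point for each library. The bleomycin day 14 libraries stand apart at 505.2 RPKM and above. The pneumonectomy libraries have marker sums of 47.7 to 90.6 RPKM and Foxf1 levels of 14.3 to 19.5 RPKM. Taken singly, 17 of the 20 markers were called higher there than in sham. The part of endothelial cells in these levels was not tested.

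Foxf2 (chromosome 13, 31625816 to 31631403, plus strand, mm10), the paralog of Foxf1, stood at 15.1, 13.7 and 14.3 RPKM at bleomycin day 14, 6.62, 10.2, 8.24, 12.1 and 12.1 RPKM at day 30, 5.09, 5.39 and 6.90 RPKM after pneumonectomy and 2.36 and 2.93 RPKM in sham. Sham was below every other library, and day 14 bleomycin above every other. The log2 change against sham was 2.13 ± 0.22 (adjusted p = 8.23e-06) at bleomycin day 14, 1.71 ± 0.21 (adjusted p = 0.000277) at day 30 and 1.30 ± 0.22 (adjusted p = 0.000923) after pneumonectomy. Foxf2 was higher at bleomycin day 14 than after pneumonectomy (0.83 ± 0.20, adjusted p = 0.0029). Day 30 against day 14 gave -0.42 ± 0.18 (adjusted p = 0.0629), which was called without scaling (-0.57, adjusted p = 0.0177), without bleomycin day 30 replicate 4 (-0.50, adjusted p = 0.0333) and without replicate 5 of that group (-0.49, adjusted p = 0.0374). Within libraries the ratio of Foxf1 to Foxf2 was 1.22 to 2.80 at bleomycin day 14, 0.528 to 1.03 at day 30, 2.07 to 3.83 after pneumonectomy and 2.12 to 3.41 in sham. Foxf1 and Foxf2 each overlap an annotated miRNA on the opposite strand by 98 bases.

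Meox2 (chromosome 12, 37108540 to 37179534, plus strand, mm10) was the other member that fell at bleomycin day 14. It stood at 8.95, 8.58 and 8.03 RPKM at bleomycin day 14, 16.2, 11.0, 12.8, 14.5 and 12.1 RPKM at day 30, 8.25, 9.29 and 7.58 RPKM after pneumonectomy and 10.7 and 12.6 RPKM in sham. As deposited, the day 14 libraries of both treatments overlapped each other and were below sham. After scaling, the pneumonectomy libraries overlapped sham and lay above the bleomycin day 14 libraries. The log2 change against sham was -0.71 ± 0.16 (adjusted p = 0.00189) at bleomycin day 14, 0.07 ± 0.14 (adjusted p = 0.755) at day 30 and -0.27 ± 0.16 (adjusted p = 0.188) after pneumonectomy. The pneumonectomy value was called without scaling (-0.47, adjusted p = 0.0186). The difference of bleomycin day 14 from pneumonectomy was -0.44 ± 0.14 (adjusted p = 0.0137). It depended on the scaling, being 0.03 without scaling (adjusted p = 0.853) and -0.32 with upper-quartile scaling (adjusted p = 0.0591), and it missed the threshold without bleomycin day 14 replicate 3 (-0.38, adjusted p = 0.0547) or pneumonectomy library B (-0.36, adjusted p = 0.0597). Day 30 was above day 14 with no overlap (0.78 ± 0.13, adjusted p = 0.000234).

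Hoxa5 (chromosome 6, 52201754 to 52204587, minus strand, mm10) had its highest mean after pneumonectomy, where library C as deposited lay within the bleomycin day 14 range. It stood at 9.24, 8.68 and 8.69 RPKM at bleomycin day 14, 7.25, 6.48, 5.74, 6.59 and 6.88 RPKM at day 30, 11.3, 10.2 and 8.69 RPKM after pneumonectomy and 5.32 and 6.08 RPKM in sham. Sham overlapped only with day 30, and both day 14 groups were above it. The log2 change against sham was 0.36 ± 0.12 (adjusted p = 0.0221) at bleomycin day 14, 0.09 ± 0.11 (adjusted p = 0.573) at day 30 and 1.01 ± 0.12 (adjusted p = 9.93e-05) after pneumonectomy. The bleomycin day 14 value missed the threshold without replicate 1 of that group (0.31, adjusted p = 0.0690) and without sham replicate 1 (0.27, adjusted p = 0.164). Hoxa5 was lower at bleomycin day 14 than after pneumonectomy (-0.64 ± 0.11, adjusted p = 0.000245), a difference that was -0.17 without scaling (adjusted p = 0.142). Day 30 against day 14 gave -0.27 ± 0.10 (adjusted p = 0.0315), and this call was lost without bleomycin day 14 replicate 1 (-0.22, adjusted p = 0.127) or 2 (-0.29, adjusted p = 0.0561). It was also lost without bleomycin day 30 replicate 2 (-0.27, adjusted p = 0.0525), 3 (-0.23, adjusted p = 0.0641) or 4 (-0.27, adjusted p = 0.0508), and without the filter on low values (-0.27, adjusted p = 0.0607).

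Within the bleomycin day 30 group the members did not vary alike. Tbx2, Tbx4 and Foxf2 were each lowest in replicate 1 and highest in replicates 4 and 5, with a ratio of the highest to the lowest library of 1.81 for Tbx2, 1.84 for Tbx4 and 1.83 for Foxf2. Tcf21 was highest in replicate 1 and lowest in replicate 2, with a ratio of 1.44. The ratio of Tbx2 to Tcf21 within a library was 4.10 to 5.67 at bleomycin day 14, 0.641 to 1.45 at day 30, 0.567 to 0.803 after pneumonectomy and 0.235 to 0.236 in sham. The ratio of Foxf2 to Tcf21 was 1.06 to 1.86 at bleomycin day 14, 0.220 to 0.503 at day 30, 0.157 to 0.205 after pneumonectomy and 0.0636 to 0.0818 in sham. Since these are ratios within a library, they do not depend on the scaling between libraries.

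**Figure D4:**
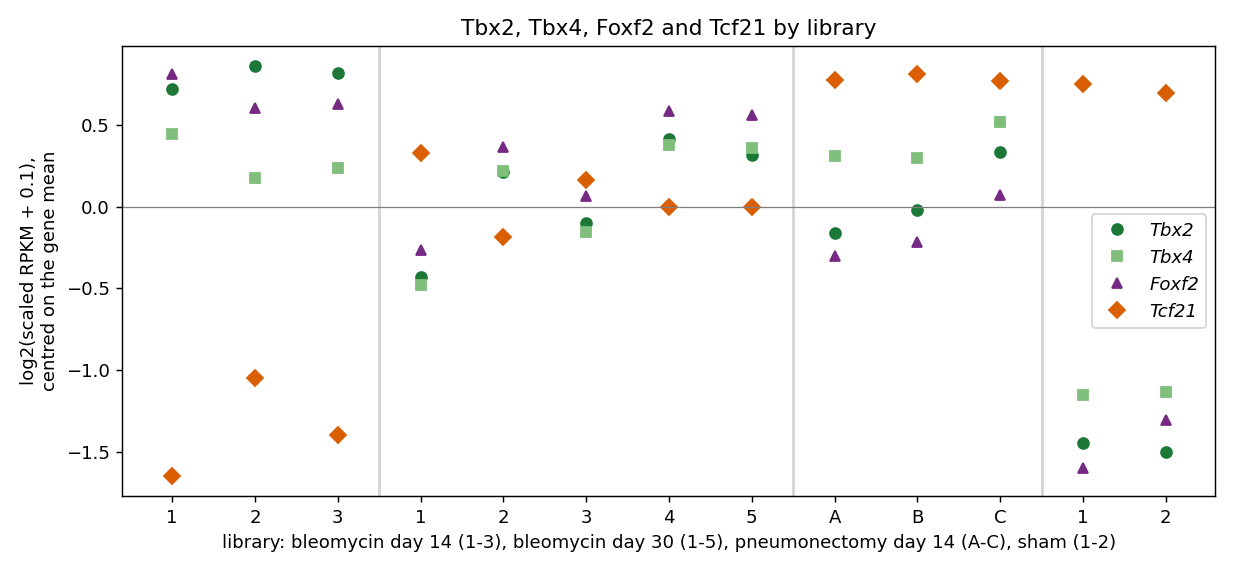
Scaled level of Tbx2, Tbx4, Foxf2 and Tcf21, each centred on its own mean over the 13 libraries (y axis, log2 scale), with a symbol for each library, by group along the x axis. Tbx2 and Foxf2 lie close together, with a root-mean-square difference of 0.19, while Tcf21 is low at bleomycin day 14, where they are high.

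For each member, the genes most like it over the 13 libraries were those with the smallest root-mean-square difference of centred log2 levels among 11229 candidates. Tbx2 was nearest to Foxf2 (0.19), followed by Tgfb1, which encodes the growth factor TGF-beta 1 (0.217), and Slc6a6, a taurine transporter (0.22). Foxf2 was nearest to Serpine2, a serine protease inhibitor (0.113), Rab31 (0.132) and Chst15 (0.185). Tcf21 was nearest to Lamb2, a laminin chain of basement membranes (0.167), Fbln5, an elastic fibre protein (0.172), and Eda (0.178), against a spread of its own level of 0.824. Tbx4 was nearest to Ncald (0.138), Tmem176b and Micall2 (0.15 each). Tbx3 was nearest to Ttyh3 (0.165), Cdc42ep1 (0.183) and Tpst2 (0.185), and Tbx5 to Fzd1, a Wnt receptor (0.0992), Mmab (0.111) and Zmat3 (0.114). Genes near Foxf1 included the transcription factor Ets1 (0.252) and Ifi203 (0.281). Meox2 was nearest to Bhlhb9 (0.137), Gpx8 (0.146) and Phyh (0.147), and Hoxa5 to the translation factor Eif4e (0.0874), Tmem251 (0.117) and H3f3b (0.127). Among the members, Tbx2 and Tbx4 differed by 0.336, Tbx4 and Foxf2 by 0.366, Foxf1 and Foxf2 by 1.01, and Tcf21 and Tbx2 by 1.43. These distances rest on 13 libraries of 4 groups and are descriptions.

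Lists of other genes of these families and of the pathways around them were counted beside the same background, 31.6% of all genes higher and 31.5% lower at bleomycin day 14 against sham. Of 20 other mesenchymal transcription factors tested, 2 were higher and 14 lower than in sham (median -0.73), among them Osr1, a zinc-finger factor of early mesoderm (-2.84 ± 0.13), Tshz2 (-2.30 ± 0.11) and Gata6 (-1.71 ± 0.08). Of 23 signalling genes, 3 were higher and 15 lower (median -0.77), among them the Wnt ligands Wnt2b (-4.80 ± 0.32) and Wnt5a (-1.52 ± 0.13) and the retinoic acid synthesis enzyme Aldh1a2 (-2.43 ± 0.21). Of 18 other forkhead genes, 6 were higher and 10 lower, with the cell division factor Foxm1 higher (3.20 ± 0.21) and Foxp2 (-2.86 ± 0.19) and Foxc1 (-2.21 ± 0.24) lower. Of the bHLH partners and the Id genes that block them, 3 of 7 were higher and 2 lower, with Id1 higher (1.30 ± 0.22), Id4 lower (-1.64 ± 0.17) and the E-protein gene Tcf3 higher (0.37 ± 0.07). Of 11 other Hox genes of the A and B clusters, 2 were higher and 2 lower, with Hoxb7 higher (1.30 ± 0.19). Both other T-box genes tested, Mga and Tbx20, were lower.

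After pneumonectomy, the background was 21.5% of all genes higher and 20.8% lower than in sham. Of 18 other forkhead genes, 9 were higher and 2 lower (median 0.41), with Foxs1 at 2.05 ± 0.15, Foxq1 at 1.83 ± 0.31 and Foxp4 at 0.91 ± 0.13. Of 20 other mesenchymal factors, 3 were higher and 5 lower, with Osr1 (-1.40 ± 0.13) and Prrx1 (-0.90 ± 0.10) lower. Of 23 signalling genes, 6 were higher and 6 lower, with Bmp5 higher (1.59 ± 0.15) and Wnt5a (-1.35 ± 0.13) and Wnt2b (-2.58 ± 0.32) lower. Of the 7 bHLH partners and Id genes, 4 were higher and 0 lower, with Id3 at 1.06 ± 0.18 and Id4 at 0.71 ± 0.17. Fgf10, the branching ligand that Tbx4 and Tbx5 act on in the lung bud, was picked after its values were seen: its change against sham was -0.32 ± 0.18 at bleomycin day 14, which was not called, and 0.77 ± 0.18 (adjusted p = 0.00628) after pneumonectomy. Gli1, the Hedgehog effector picked in the same way, fell by 2.05 ± 0.18 on the log2 scale at bleomycin day 14 against sham. It was also lower than in sham after pneumonectomy (-0.545 ± 0.18, adjusted p = 0.0329 by limma). At bleomycin day 30 against sham its change of -0.42 ± 0.17 was not called (adjusted p = 0.0840 by limma).

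**Figure D5:**
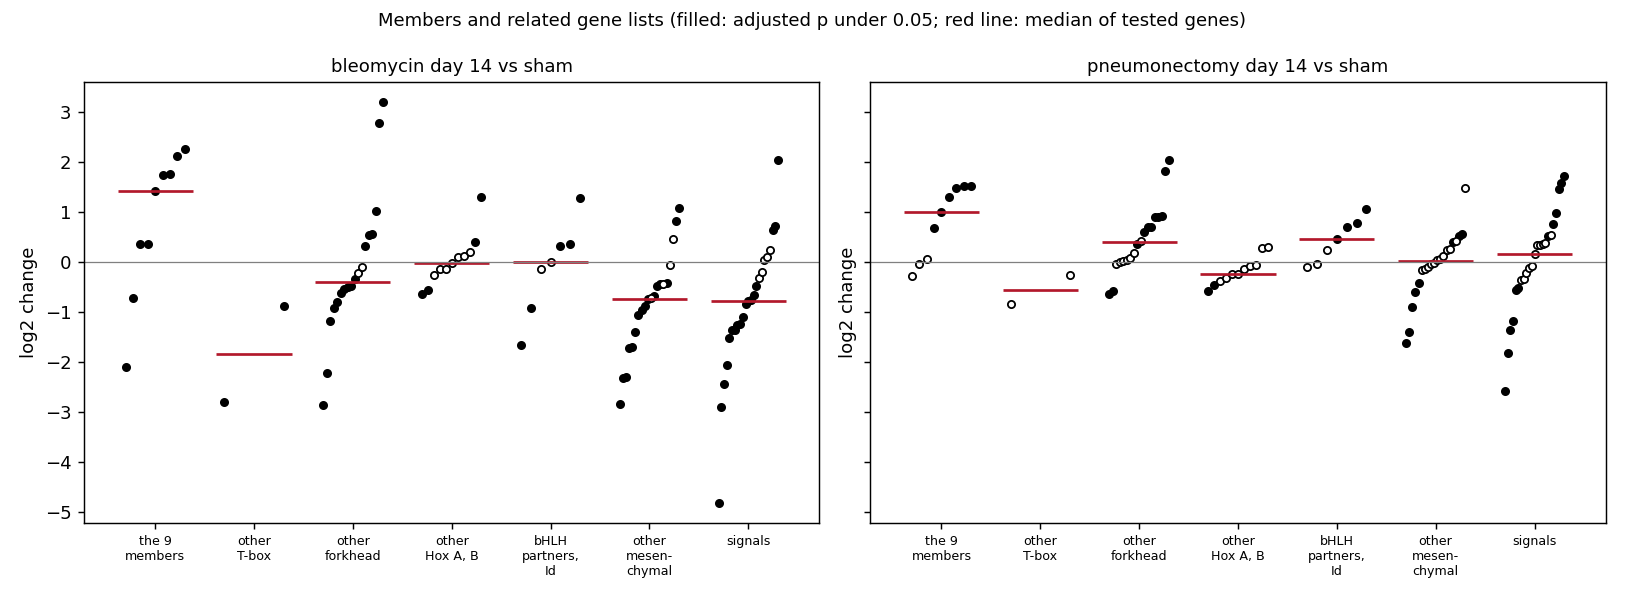
Log2 change against sham (y axis) of the members and of the related lists (x axis), at bleomycin day 14 (left) and after pneumonectomy (right), a point for each gene tested, filled where adjusted p was under 0.05, and a line at the median. The members' medians of 1.43 and 1.01 lie above the medians of the other lists, most of which lie below 0 at bleomycin day 14. Members and lists were chosen with earlier results of these data known, so the contrast is a description only.

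From bleomycin day 14 to day 30, 15 of the 20 other mesenchymal factors were higher at day 30 and 1 lower, with Osr1 at 2.24, Tshz2 at 1.58 and Gata6 at 1.34, beside 31.2% of all genes higher and 28.3% lower. Of 23 signalling genes, 16 were higher at day 30 and 1 lower, with Wnt2b at 3.29, Aldh1a2 at 2.17 and Wnt5a at 1.37. Tcf21 and Meox2 were the members that were higher at day 30, and Tbx2, Tbx3, Foxf1 and Hoxa5 those that were lower. Against sham at day 30, 1 of the 20 other mesenchymal factors was higher and 5 lower, and 2 of the 23 signalling genes higher and 3 lower, beside 14.9% of all genes higher and 13.9% lower.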

How the data were processed

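RNA-seq of lung fibroblasts was given as one merged table of RPKM per gene for 13 libraries, deposited by the authors. Per the labels' protocols, libraries were made from 200 ng total RNA with a TruSeq v2 mRNA kit. Per the submitters' processing notes the builds were mm10 and GRCm38. The aligner, the counter and any strand setting are not given in the sources used here. RPKM are not counts, so no count test was run as the result. Relative depth came from the commonest ratio of low values between libraries. Absolute depth came from annotated exonic lengths, with a gene's smallest value taken as 1 read. For genes whose smallest value was near 1 read at that depth, 27883 low values were checked. Of these, 100% were whole multiples of that smallest value within 0.01, a check within each gene that does not test the absolute depth. Errors are the spread between libraries, and no interval for counting error was computed.

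From the deposited RPKM, libraries were scaled by an unweighted trimmed mean (30% of ratios and 5% of levels trimmed). A gene was tested if 2 libraries or more had it at 1 RPKM or higher. log2(scaled RPKM + 0.1) was fitted with limma 3.58.1 in R 4.3.3 (1 mean per group, trend and robust, two-sided), adjusted over 12938 genes by Benjamini-Hochberg and called at 0.05. The fold changes understate those of low genes. The fit was tested on simulated data. Groups came from the labels. Since no replicate number is given for the pneumonectomy columns, they are named libraries A, B and C. The members and lists were chosen with earlier results of these data known. Named were all members, up to 3 called genes per list and comparison with the smallest p, the 3 genes most like each member, and genes beside a member. Some genes that this rule names are not reported here. Alternatives were other pseudocounts (1 and 0.01), no filter, no scaling, upper-quartile scaling, leaving out each library and a replicate block. The replicate numbers were not taken as pairs in the main fit. Positions are from GENCODE M21.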

Additional observations from a re-analysis of the deposited data

Results flagged for a closer look

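For 13 member changes the test of the difference itself passed the threshold (limma, adjusted p under 0.05). Of the 9 members, 2 were not called for bleomycin day 14 against pneumonectomy, where 70.8% of all genes were called. For day 30 against day 14, 3 were not called, where 59.4% of all genes were called. The difference of the change against sham at bleomycin day 14 minus that after pneumonectomy is the direct comparison of those groups, since both use the same sham libraries. On the log2 scale it was -2.15 for Tcf21, 0.75 for Tbx2, 1.08 for Tbx3, 0.40 for Tbx5, 0.83 for Foxf2, -0.44 for Meox2 and -0.64 for Hoxa5. The values of Meox2 and Hoxa5 depended on the scaling. The difference of the change against sham at bleomycin day 30 minus that at day 14 was 1.42 for Tcf21, -0.72 for Tbx2, -1.39 for Tbx3, -1.98 for Foxf1, 0.78 for Meox2 and -0.27 for Hoxa5. That of Hoxa5 was lost when single libraries were left out. The day 30 libraries also differed in sex from the day 14 libraries, and the 2 cannot be told apart. No library stood far from its group in the members' values by Dixon's test, which covers only the group of 5 day 30 libraries.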

How the results depend on the processing

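Of 621 alternative values for the members, 576 kept direction and side of the threshold, 26 missed the threshold, 7 passed it and 12 changed sign. The sign changes were in values that had not been called, except Meox2 for bleomycin day 14 against pneumonectomy. Against sham at bleomycin day 30, Meox2 was -0.00847 without bleomycin day 30 replicate 1, and leaving out each library in turn gave -0.051 to 0.184 for Meox2 and -0.00266 to 0.184 for Hoxa5. Against sham after pneumonectomy, Tcf21 was -0.14 without scaling and -0.0468 with upper-quartile scaling, and Tbx5 was 0.00286 without library A, 0.0101 without library B and 0.033 without sham replicate 2, in a range of -0.116 to 0.033. For bleomycin day 14 against pneumonectomy, Tbx4 was 0.386 without scaling and 0.0326 with upper-quartile scaling, and Meox2 was 0.0278 without scaling. For day 30 against day 14, Tbx5 was -0.00282 without scaling. The cause was not tested. Leaving out 1 library at a time gave 7 to 9 members called for bleomycin day 14 against sham, 3 to 5 for day 30 against sham, 5 to 6 for pneumonectomy against sham, 6 to 8 for bleomycin day 14 against pneumonectomy and 5 to 7 for day 30 against day 14. Deviations from group means correlated at -0.127 to 0.136 between same-numbered libraries and at -0.217 to 0.201 between other-numbered ones. The deviations of the 2 sham libraries mirror each other, so these correlations cannot exclude pairing. The numbers were not taken as pairs in the main fit. With the replicate block, 0 members were called for day 30 against sham, in a fit that called 0 of 12938 genes (3728 without the block). For bleomycin day 14 against sham it called 6 of 9 members and 4008 of 12938 genes (8165 without the block). For day 30 against day 14 it called 7 members and 6015 of 12938 genes (7689 without the block). Over all genes, day 30 against sham gave 2340 calls without sham replicate 1 and 1805 without sham replicate 2. Pneumonectomy against sham gave 5475 calls, 3406 without sham replicate 2 and 3548 when only the compared groups were fitted. Sham has 2 libraries, which limits every comparison with it.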

Other observations

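The neighbours of Foxf2 on chromosome 13 moved apart at bleomycin day 14 against sham. Foxq1, 64.8 kb from Foxf2 on one side, was higher by 2.78 on the log2 scale, and Foxc1, 175.2 kb away on the other side, fell by 2.21 ± 0.24, while Foxf2 itself was higher by 2.13. Foxq1 is a low gene, at a mean of 1.54 RPKM at bleomycin day 14 and 0.103 RPKM in sham, so its change depends on the pseudocount of 0.1. It was also higher at bleomycin day 30 (2.17) and after pneumonectomy (1.83). Beside Meox2 on chromosome 12, Agmo was lower at bleomycin day 14 (-1.28 ± 0.11, adjusted p = 1.8e-06 by limma) and was at 0.02 ± 0.11 after pneumonectomy (adjusted p = 0.879). Bcas3, 6.49 kb from Tbx2, was at -0.02 ± 0.07 at bleomycin day 14 (adjusted p = 0.780) and higher after pneumonectomy (0.70 ± 0.07, adjusted p = 2.5e-05).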
